A study of Mus musculus with 8 samples.

Results

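Mesenchymal stem cells (MSC) grown from the bone marrow of BALB/c mice were described here by themselves, as the 4 arrays whose strain label is BALB/c of the 8 arrays in the series. The other 4 arrays hold MSC of NOD mice, a strain that develops autoimmune diabetes, and are used only to show which genes were measurable in them. The BALB/c mice were age-matched to NOD mice with normal blood glucose. Marrow cells from femurs and tibiae were grown in medium with fetal calf serum and taken at passage 4. By the design text the marrow of at least 5 mice was pooled, although each title names 1 mouse, and it is not stated whether the 4 cultures came from separate marrow preparations, so the spread between them may be partly technical. The strain label and the title of each sample put it in its group; the design text numbers the NOD samples first, against the order of the labels, which were followed here. A treatment with interleukin-1 beta is described, but no array is labelled as treated.

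MSC are adherent stromal cells that can be driven to form bone, fat or cartilage. In the marrow such cells lay down matrix, shelter blood-forming cells with chemokines and adhesion molecules, and dampen immune responses through secreted and surface molecules. Cultures of mouse marrow started on plastic can carry macrophages along, because these adhere as well.

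A level below is a background-corrected, quantile-normalized log2 signal intensity, and a gene counts as detected on an array where the deposited detection p-value is below 0.05. Of 8107 genes with a named probe, 3709 (45.8%) were detected on all 4 BALB/c arrays, 652 on 2 or 3 arrays, and 3362 (41.5%) on none. The 45.8% and 41.5% are the shares to set beside the detection counts of gene lists below. The 4361 genes detected on 2 or more arrays are called measured genes below. A rank is one of probe signal, since probes differ in how well they bind. Cultures 1 and 4 were close to each other, with a correlation of 0.98 across the measured genes, whereas cultures 2 and 3 stood apart from them (0.90 to 0.91) and from each other (0.88). The correlation is a description across genes, which are not independent. Culture 2 also had the highest median raw signal, 74.9 against 56.5 to 61.0 in the other cultures. The mean of its negative controls, inferred from the detection p-values, was higher too, 66.3 against 51.3 to 53.6. Values are therefore given per culture for most genes, and the counts and spreads over all cultures are also given without cultures 2 and 3.

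The genes named as marks of the BALB/c cultures were detected on every BALB/c array, with Tmem14c and H2-D1 bright and Cd274 dim. Tmem14c, a mitochondrial membrane protein needed for heme synthesis, had levels of 12.19, 12.87, 12.65 and 12.05 in BALB/c cultures 1 to 4, with NOD cultures at 5.27 to 5.44, where it was detected on no array. H2-D1, a classical MHC class I heavy chain, stood at 11.07, 12.43, 11.25 and 10.61 in the BALB/c cultures, against 5.24 to 6.38 in NOD. Cd274, the inhibitory ligand PD-L1, was at 7.15, 7.06, 8.18 and 7.47 in the BALB/c cultures, against 5.01 to 5.87 in NOD. For each of the 3 genes the 4 BALB/c values lay above all 4 NOD values, culture 3 included. They were chosen for this difference, so it is given with no test, and they separate the strains rather than mark a cell lineage.

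Ribosomal protein genes made up much of the brightest named genes. Of the 30 genes with the highest mean level, 16 encode cytosolic ribosomal proteins. Ubb, a ubiquitin precursor, ranked first at 14.71 ± 0.039 (SD, n = 4 cultures, as for all SDs below), and the 30th gene, the cysteine protease inhibitor Cst3, stood at 14.20 ± 0.23. Rpl24 (14.66 ± 0.077), Actb (beta-actin, 14.64 ± 0.045, with a second probe at 13.24 to 14.42) and Gapdh (a glycolytic enzyme, 14.57 ± 0.088) came next. Among the 30 were also Mt1, a metal-binding metallothionein at 14.43 ± 0.093, B2m, the light chain of MHC class I at 14.32 ± 0.13, the prion protein gene Prnp at 14.32 ± 0.33, and the tetraspanin Cd63 at 14.29 ± 0.035. The SD of these 30 genes ran from 0.034 to 0.33, and the values of most neighbours in the order overlap across cultures. By families, the ribosomal protein genes had the highest median level (13.77 over 70 measured of 75 with a probe). Lysosome and iron-storage genes followed at 13.64 (9 of 10), then protease inhibitors at 12.95 (7 of 10), glycolysis genes at 12.55 (15 of 17) and antioxidant genes at 12.53 (11 of 12). Oxidative phosphorylation genes had a median of 12.24, with 50 of 52 measured.

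**Figure D1:**
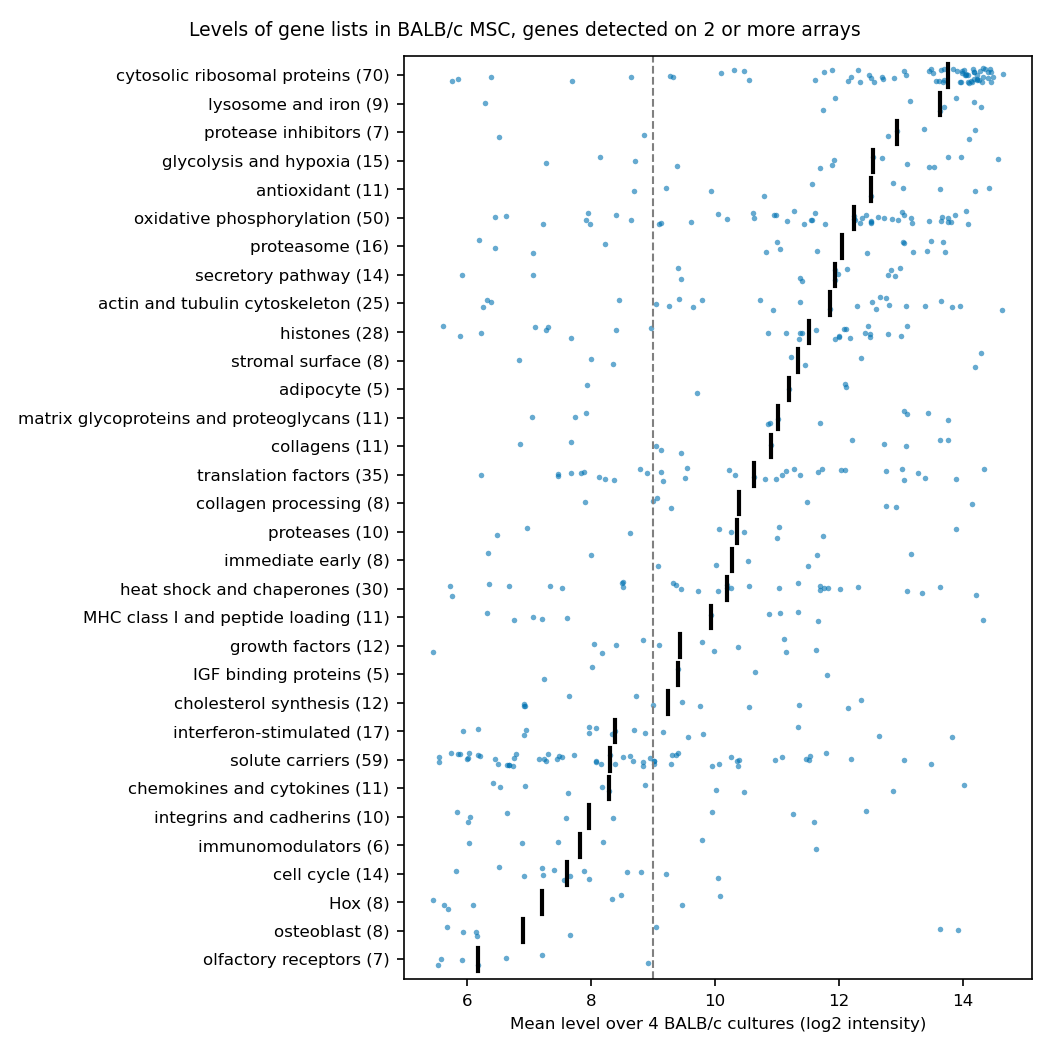
Each point is a named gene placed at its mean level over the 4 BALB/c cultures (log2 intensity), in rows by gene list with the number of measured genes in brackets; black bars are list medians and the dashed line is the median of all measured genes. Ribosomal protein genes have the highest median, 13.77, and cell cycle, Hox and osteoblast lists lie left of the dashed line.

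Absence of signal is weaker evidence than presence on these arrays. Several genes that nearly every cell uses were detected on no BALB/c array, namely Actg1 (gamma-actin), Eef1a1 (a translation elongation factor), Rpsa and Rps18 (ribosomal proteins), Canx (the chaperone calnexin) and Hif1a (the hypoxia factor). The classical MHC class I gene H2-K1 was likewise detected on none. Undetected genes below are therefore reported as undetected by their probe.

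Among surface molecules used to describe MSC, the tetraspanins, Cd47 and Vcam1 were bright and, by their brightest probes, even. Eng, Alcam and Cd44 were dim in most cultures. Of 10 stromal surface genes with a probe, 7 were detected on all 4 arrays, and the median SD of the 8 measured ones was 0.24, against 0.44 over all measured genes. A range of at least 4-fold was seen in 2 of the 8, against 14.4% of all measured genes. Cd81 (14.19 ± 0.16), Cd151 (12.36 ± 0.20) and Cd47 (11.45 ± 0.28) are a pair of tetraspanins and the signal that restrains phagocytes. A second Cd151 probe was less even, at 11.59, 12.68, 11.65 and 11.76 in cultures 1 to 4. Vcam1, the adhesion molecule by which stroma holds blood-forming cells, was at 11.22 ± 0.17. Endoglin (Eng), a TGF-beta co-receptor, stood at 7.37, 7.16, 10.08 and 7.40 in cultures 1 to 4. Culture 3 alone was high for it, and the other 3 values lay within 0.25 of each other. Alcam was at 6.32, 8.00, 5.50 and 7.53, undetected in culture 3, and Cd44, the hyaluronan receptor, was detected in culture 3 only, at 5.81.

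Among lineage genes, the bone matrix genes Spp1 and Col1a1 were bright and most other osteoblast genes dim. Of 10 osteoblast genes with a probe, 4 were detected on all arrays. Spp1, which encodes the matrix protein osteopontin, had 13.93, 13.93, 13.96 and 13.85 in cultures 1 to 4, one of the most even bright genes. Col1a1, a chain of the main bone collagen, had 14.43, 13.54, 12.81 and 13.78, with culture 3 lowest. Alpl, the alkaline phosphatase that frees phosphate for mineral, had 8.66, 7.14, 5.73 and 9.12, a 10.5-fold range with cultures 4 and 1 high. Bglap2, an osteocalcin gene, was at 5.64, 6.16, 4.94 and 7.91, and its near-identical copies Bglap and Bglap3 were detected on 2 arrays each, so their probes may not tell them apart. Runx2, the master regulator of osteoblasts, was detected on 1 array, at 5.67, close to the detection limit.

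Adipocyte genes split between regulators or enzymes of lipid handling and markers of mature fat cells. Of 8 with a probe, 5 were detected on all arrays. Fasn (fatty acid synthase) was even at 12.12 ± 0.20. Lpl, the lipase that releases fatty acids from lipoproteins, had 11.42, 12.17, 9.04 and 12.14, low in culture 3. Cebpb and Cebpa, transcription factors of fat cell differentiation, averaged 12.10 ± 0.99 and 9.72 ± 0.62, and Cebpb was lowest in culture 2 at 10.62. The fatty acid carrier Fabp4, the fatty acid receptor Cd36 and the gluconeogenic enzyme Pck1 were detected on none. Of 7 cartilage genes, none was detected on all arrays and 4 were detected on none, the collagens Col2a1, Col9a1 and Col11a1 and the matrix protein Matn3. Sox5, a cartilage transcription factor also used in other lineages, had 7.81, 5.50, 9.13 and 7.63 and was undetected in culture 2. Of 4 smooth muscle genes, Acta2 (alpha smooth muscle actin) had 10.35, 12.04, 7.90 and 11.07, a 17.6-fold range with culture 2 highest and culture 3 lowest. Cnn3, a widely expressed calponin, was even at 13.55 ± 0.064, and Cnn1, the smooth muscle calponin, was undetected.

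Markers of other marrow cells were mostly at background, except Cd53 and several macrophage genes. All 3 endothelial genes (Pecam1, Emcn, Egfl7) were detected on no BALB/c array. Of 5 lymphoid and pan-leukocyte genes, Ptprc (CD45), Cd3e, Il7r and Cd52 were undetected, and the fifth, the leukocyte tetraspanin Cd53, had 5.89, 5.06, 8.03 and 8.93. Of 3 hemoglobin genes, Hba-a1 was detected on 2 arrays, at no more than 5.90, and the beta chains on none. Of 13 macrophage and myeloid genes with a probe, 3, 2, 1 and 6 were detected in BALB/c cultures 1 to 4, against 0, 0, 1 and 1 in NOD cultures 1 to 4. The mean level over all 13 was 5.47, 5.71, 5.07 and 6.44 in BALB/c cultures 1 to 4, against 4.99 to 5.31 in NOD. Cd68, a lysosomal protein of macrophages, had 7.96, 6.92, 6.05 and 9.12 in BALB/c cultures. The complement genes C1qb (5.92, 5.63, 5.05, 8.54) and C1qa (detected in culture 4 only, at 7.62) were highest in culture 4. So were the growth factor receptor Csf1r (6.69) and the Fc receptor Fcgr3 (6.83), both detected there only. Lyz2, lysozyme of myeloid cells, ran another way, with 7.39, 11.44, 5.21 and 9.88, and its second probe was undetected in all cultures. Granulocyte genes such as Mpo were undetected. In bulk RNA, more cells of a type and more RNA per cell cannot be told apart.

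**Figure D2:**
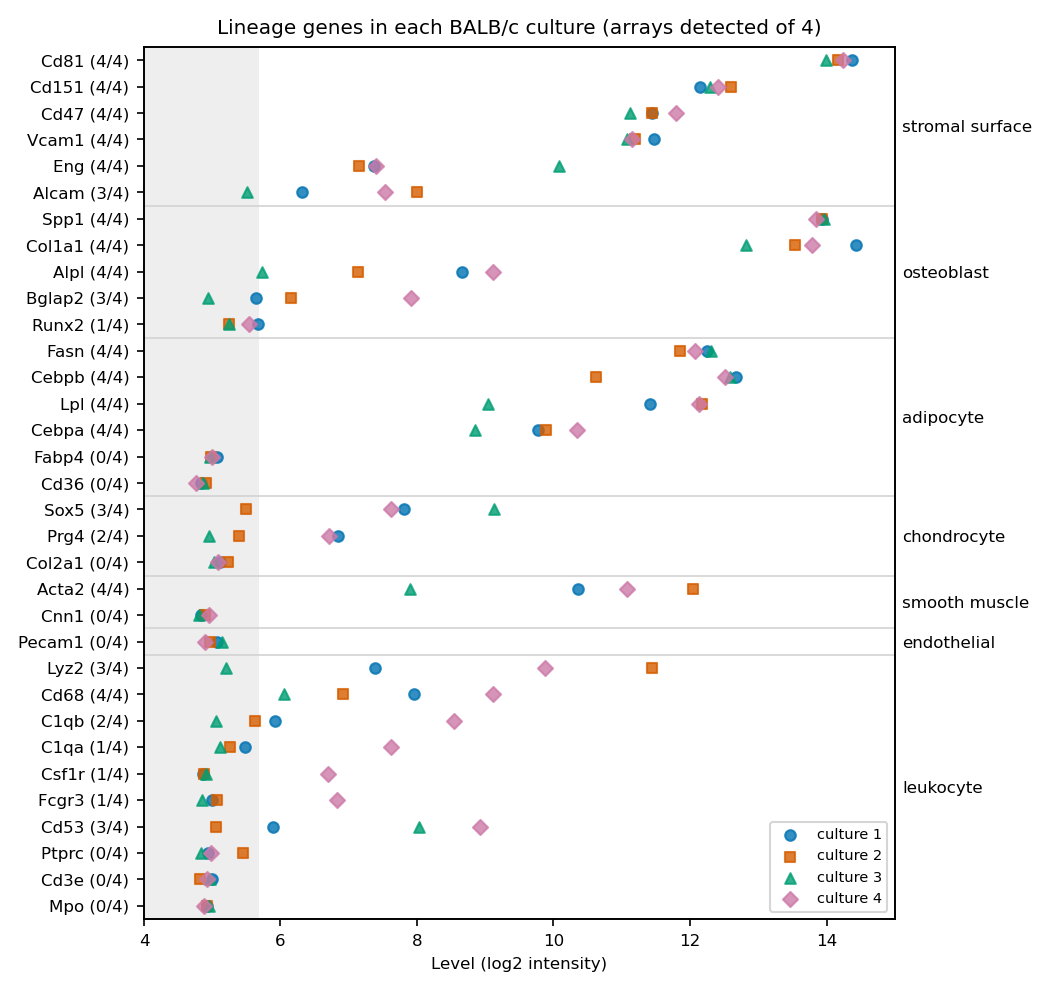
Level (log2 intensity) of lineage genes in BALB/c cultures 1 to 4, 1 symbol per culture, with the number of arrays that detected the gene in brackets; the grey band ends at the highest of the 4 arrays' detection limits. Spp1 lies between 13.85 and 13.96 in all cultures, while C1qb, Csf1r and Fcgr3 stand apart in culture 4 and Eng in culture 3.

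Sex-linked genes were read as a check of the cultures' make-up. Xist, transcribed from the inactive X chromosome, was detected on all 4 arrays at 12.84, 11.47, 11.22 and 12.65. Of 7 Y-linked genes with a probe, 6 were detected on none, and Eif2s3y was detected in culture 3 only, at 7.21, against 4.80 to 4.90 in the other BALB/c cultures and 4.87 to 5.01 in NOD. The labels give no sex.

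The secreted matrix was rich in a few collagens and proteoglycans. Of 27 collagen genes with a probe, 9 were detected on all arrays, 2 on 3 arrays, 3 on 1 array and 13 on none. The brightest were Col6a1 (13.77 ± 0.56), Col1a1 (13.64 ± 0.67), Col5a1 (13.09 ± 0.090), Col8a1 (12.73 ± 0.85) and Col6a3 (12.21 ± 0.68). Col5a1 was the most even of these, and its partner chain Col5a2 was undetected. The least even were Col27a1 (7.92, 4.88, 8.74 and 5.88) and Col15a1 (7.91, 5.41, 9.15 and 8.27), both undetected in culture 2 and highest in culture 3. Among matrix glycoproteins and proteoglycans, 11 of 13 were detected on all arrays. Decorin (Dcn), which binds collagen fibrils, averaged 13.76 ± 0.32, but its second probe had 9.74, 12.74, 9.75 and 9.52, with culture 2 apart. Mgp, an inhibitor of calcification, averaged 13.45 ± 0.66, and the basement membrane proteoglycan gene Hspg2 13.10 ± 0.50. Thbs2, a thrombospondin, had 12.59, 12.76, 14.26 and 12.60, with culture 3 apart. Its relative Thbs1 had 6.88, 10.53, 7.80 and 6.50, with culture 2 apart, a 16.3-fold range. Periostin (Postn) and elastin (Eln) were undetected.

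Proteases and their inhibitors were both abundant. The secreted inhibitors Cst3, Serpinf1 (14.11 ± 0.53), Timp2 (13.37 ± 0.60) and Timp3 (12.95 ± 0.45) were among the brighter genes, though a second Timp3 probe lay at 7.69 to 9.40. Serpinf1, the anti-angiogenic factor PEDF, was even at 14.34 to 14.43 in cultures 1, 2 and 4 and lower in culture 3 at 13.32. The lysosomal protease Ctsb (13.89 ± 0.17) was the brightest protease. Adamts5, which cleaves aggrecan, had 11.43, 10.64, 8.65 and 11.14, while the membrane protease Adam19 was highest in culture 3 at 11.94, against 9.15 to 9.98 in the others. The macrophage elastase Mmp12 was detected in cultures 1 and 4 only, at 6.89 and 8.64.

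Among soluble signals, Mif, a macrophage-acting cytokine, was bright and even at 14.02 ± 0.18. Of 15 chemokine and cytokine genes with a probe, 9 were detected on all arrays and 4 on none, among them Cxcl12, the chemokine that retains blood-forming cells in marrow. Cx3cl1, a membrane-bound chemokine, had 11.30, 10.96, 8.58 and 11.07. The growth factors Tgfb2 (11.63 ± 0.32), Pdgfa (11.15 ± 0.75) and Vegfc (9.99 ± 0.50) were detected in all cultures, as was Igf1 (9.10 ± 0.67). Prl2c2, a proliferin of the prolactin family, had 7.87, 5.58, 11.89 and 8.26, at least a 74.9-fold range with culture 3 highest and culture 2 undetected. Proliferin genes are near-identical copies, so its probe may not tell them apart. Fgf10, a growth factor of mesenchyme, had 6.68, 9.44, 10.65 and 8.60. Binding proteins of insulin-like growth factors covered a wide range of levels, led by Igfbp4 at 11.81 ± 0.86, with Igfbp6 at 9.40 ± 0.83 and Igfbp3 at 7.25 ± 1.22. Igfbp5 had 9.74, 8.52, 11.86 and 12.45, and its second probe followed it. Of 9 Wnt and BMP ligands or antagonists, the Wnt inhibitor Sfrp1 was brightest (9.52, 10.01, 12.14, 9.33) and highest in culture 3. Pleiotrophin (Ptn) was undetected in BALB/c cultures.

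Of 9 immunomodulators with a probe, 4 were detected on all arrays: Tgfb2, Tgfb3 (9.80 ± 0.69), the inhibitory ligand Cd200 (8.19 ± 0.27) and Cd274. The prostaglandin enzymes Ptges (7.58, 7.40, 4.95 and 7.60) and Ptgs2 (6.64, 5.23, 5.67 and 6.58) were each undetected in 1 culture, Ptges in culture 3 and Ptgs2 in culture 2. Ido1, Tnfaip6 and Entpd1, known effectors of MSC in other settings, were undetected. Of 16 Hox genes, which carry positional identity, 5 (31.25%) were detected on all arrays, against 45.8% of all named genes. They were led by Hoxa7 (10.09 ± 0.18) and Hoxd8 (9.47 ± 0.17).

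The spread over the cultures was uneven between families. The median SD over the 4 cultures was 0.44 for all 4361 measured genes, and 627 of them (14.4%) had a range of at least 4-fold. Among the 3709 genes detected on all arrays it was 421 (11.4%). The median SD depended on level, at 0.39 below level 6, 0.58 from 6 to 8, 0.50 from 8 to 10, 0.38 from 10 to 12 and 0.24 at 12 or more. The 4-fold count was 307 without culture 2 and 302 without culture 3, and 16 when only cultures 1 and 4 were kept, so it rests on cultures 2 and 3.

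Of the 32 lists with at least 5 measured genes, cell cycle genes had the largest median SD (1.33), with 11 of 14 genes at a 4-fold range or more. Chemokines and cytokines followed (1.24, 6 of 11), then collagen processing (0.96, 6 of 8), histones (0.93, 15 of 28), immediate early genes (0.93, 4 of 8) and osteoblast genes (0.91, 4 of 8). At the other end were cytosolic ribosomal proteins (0.17, 2 of 70), antioxidant genes (0.23, 1 of 11), the proteasome (0.23, 0 of 16), stromal surface genes (0.24, 2 of 8) and oxidative phosphorylation (0.29, 0 of 50). The stromal genes with a 4-fold range were Eng and Alcam. The ribosomal ones were Rps12, treated below, and Rpl7, which had 11.49, 13.80, 13.02 and 11.65. The proteasome count leaves out Psmc1, also treated below, which was detected in culture 4 only and so is not a measured gene. Among antioxidants the glutathione transferase Gstm2 had 13.65, 13.70, 10.85 and 13.27. Its second probe had 8.90, 11.65, 6.27 and 9.02, lowest in culture 3 as well but with culture 2 high.

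The order of the variable lists was not stable. Over the alternatives the rank by median SD ran from 1 to 12 for cell cycle, 2 to 15 for chemokines and cytokines, 1 to 22 for collagen processing, 3 to 19 for histones, 2 to 19 for immediate early genes and 1 to 28 for osteoblast genes. Without culture 3, collagen processing ranked 17 and histones 19, and without culture 2, immediate early genes ranked 19. Between cultures 1 and 4 alone the median SD was 0.17 for cell cycle, 0.22 for chemokines and cytokines, 0.12 for collagen processing, 0.13 for histones, 0.15 for immediate early and 0.39 for osteoblast genes, against 0.15 over all genes. The lists also differ in level, on which the SD depended.

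**Figure D3:**
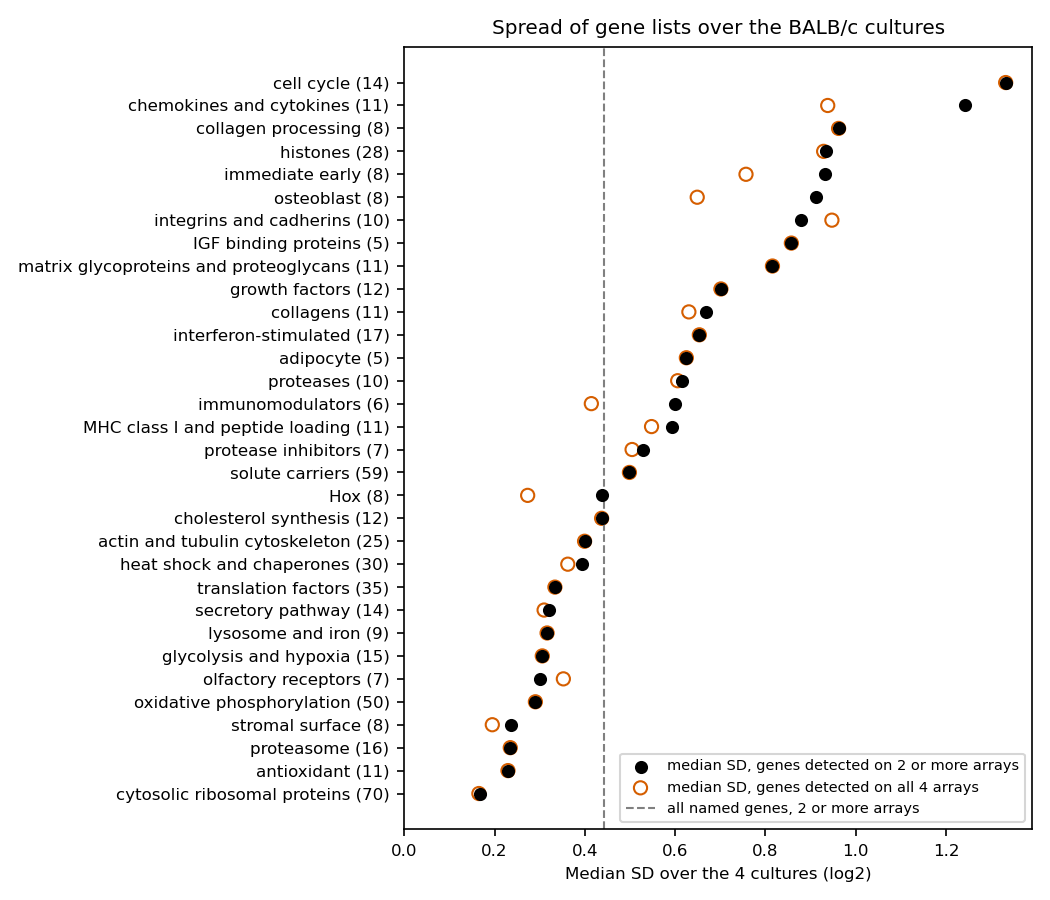
Median SD over the 4 BALB/c cultures (log2) of each gene list, for measured genes (filled points, number in brackets) and for genes detected on all 4 arrays (open points); the dashed line is the median of all measured genes, 0.44. The cell cycle list lies farthest right at 1.33 and ribosomal proteins farthest left at 0.17.

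Most cell cycle genes were higher in cultures 2 and 3 than in cultures 1 and 4. This held without overlap for 11 of 14 measured genes, against 22.2% of all measured genes. Mki67, a mark of cycling cells, had 5.67, 8.01, 9.65 and 5.51 in cultures 1 to 4. The apoptosis inhibitor and mitotic protein Birc5 had 6.13, 9.04, 10.07 and 6.32, and its other probes followed. Plk1, a mitotic kinase, had 7.18, 10.20, 9.82 and 7.16, and the cyclin Ccnb1 had 6.46, 9.07, 9.30 and 5.80. Cultures 1 and 4 lay together at the low end for each of these. The second probes of Mki67 and Plk1 were undetected in all cultures. Mcm7, part of the replicative helicase, was high in culture 3 only (10.86, against 8.43 to 8.80), and the replication clamp Pcna did not follow (7.50, 7.10, 7.57 and 7.46). Culture 3 was at least 2-fold above each other culture for 6 of the 14 genes, against 3.78% of all measured genes. The inhibitor Cdkn1a (p21) was lowest in culture 3 (12.55, 11.87, 10.49 and 12.27), and Cdkn2a had 7.36, 9.22, 9.47 and 8.36. The p53 target Ccng1 stood apart in culture 2 (9.12, 12.21, 7.95 and 8.72).

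Collagen processing genes were low in culture 3. For 5 of the 8 measured genes culture 3 was at least 2-fold below each other culture, against 6.21% of all measured genes, and the list's mean deviation from the 4-culture mean was -1.12 there, against 0.28 to 0.49 in the others. Pcolce, an enhancer of procollagen cleavage, had 13.69, 13.72, 11.04 and 13.27. P4ha3, a prolyl hydroxylase subunit, had 8.85, 8.72, 5.44 and 8.60, undetected in culture 3. The cross-linking enzyme Loxl2 had 9.28, 11.26, 6.39 and 9.37, and Loxl1 had 13.45, 12.93, 11.40 and 13.26. Bmp1, the procollagen C-proteinase, ran the other way (11.62, 10.54, 12.77 and 11.01), and the collagen chaperone Serpinh1 differed by only 0.34 between its highest and lowest culture. The collagens as a list did not share this, with 5 of 11 measured genes lowest and 5 highest in culture 3 and a mean deviation of 0.038 there. Lowest there were for example Col3a1 (11.63, 11.05, 9.48 and 11.49) and Col1a2 (9.30, 9.40, 8.10 and 9.38), and highest Col6a1 (13.91, 12.95, 14.17 and 14.06). Integrin alpha 11 (Itga11), a collagen receptor, had 13.60, 13.02, 9.68 and 13.46, a 15.1-fold range, and the matrix gene Fbln1 had 12.28, 10.91, 8.79 and 11.61.

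Histone genes split by type in culture 3. All 12 measured H2B genes were lowest there, against 28.4% of all measured genes, for example H2bc7 at 12.17, 12.92, 10.59 and 12.06, while 6 of 9 measured H2A genes were highest there, against 29.2%, for example H2ac22 at 11.53, 11.58, 12.90 and 11.99. The H2A genes were not uniform, since H2ac6 (7.94, 9.35, 5.48 and 7.96) was lowest and undetected in culture 3. In all, culture 3 was at least 2-fold below each other culture for 14 of 28 histone genes, against 6.21% of all measured genes. Histone genes come in near-identical copies whose probes may share signal, so these are not independent counts.

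**Figure D4:**
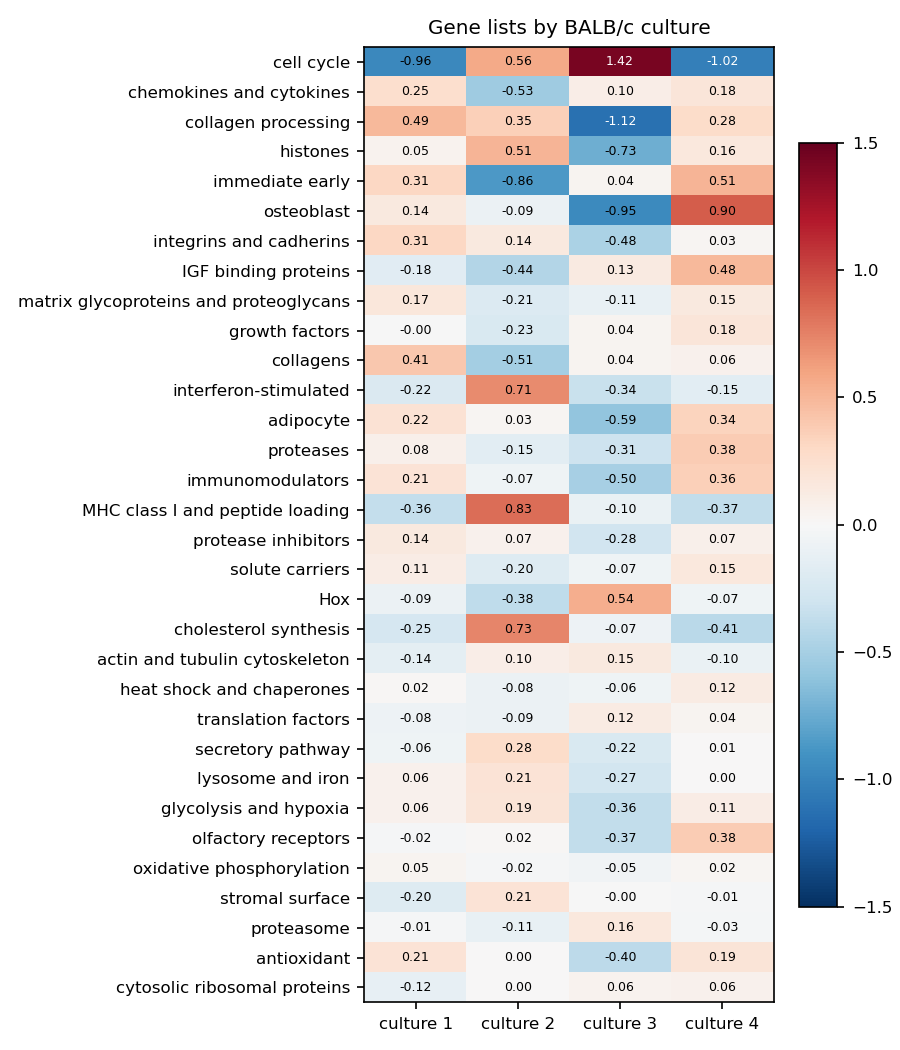
Mean deviation of each gene list from the mean of the 4 BALB/c cultures (log2), by culture, over measured genes, with lists ordered by median SD from top to bottom; red is above the mean and blue below. Cell cycle reaches 1.42 in culture 3, collagen processing -1.12 in culture 3, and MHC class I and cholesterol synthesis 0.83 and 0.73 in culture 2.

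Culture 2 carried higher levels of interferon-stimulated genes and of MHC class I with its peptide loading machinery. Interferons switch on such genes through transcription factors that bind a promoter element called ISRE. Of 22 listed interferon genes with a probe, 17 were measured, and culture 2 was at least 2-fold above each other culture for 4 of them, against 4.95% of all measured genes. Of 17 MHC class I and loading genes, 11 were measured, and the count was 4. The promoters of 3 of the genes in which culture 2 stood out, and of the chemokine gene Cxcl1 in which it was low, are shown because they hold the short element searched for, in capitals, on either strand. They are RefSeq sequences of mouse assembly GRCm38.p6, of the reference strain and not of BALB/c, written on the gene's own strand.
Ifit3 (chr19:34583343-34583442, plus strand, ISRE at 2 places): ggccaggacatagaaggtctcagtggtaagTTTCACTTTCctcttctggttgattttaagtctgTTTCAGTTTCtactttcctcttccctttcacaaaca
Oas1a (chr5:120907526-120907625, minus strand, 2 overlapping ISRE matches): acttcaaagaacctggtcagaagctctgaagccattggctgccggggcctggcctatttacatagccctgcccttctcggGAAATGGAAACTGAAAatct
H2-T22 (chr17:36042864-36042963, minus strand, ISRE at 1 place): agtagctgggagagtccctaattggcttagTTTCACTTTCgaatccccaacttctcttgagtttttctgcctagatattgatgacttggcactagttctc
Cxcl1 (chr5:90891144-90891243, plus strand, NF-kB site at 1 place): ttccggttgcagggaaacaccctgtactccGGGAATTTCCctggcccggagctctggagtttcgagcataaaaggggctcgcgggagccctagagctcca

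The ISRE was searched as GAAA, any 2 bases, then GAAA. The NF-kB site was searched as GGGAATTTCC, the letters of the Cxcl1 promoter itself. Both strands of the 250 bases before each start were searched, and the motifs were chosen after the values had been seen. The ISRE letters were found in 7 of 15 measured interferon genes and 3 of 11 measured MHC class I and loading genes with a promoter sequence, and in 2.98% of 32851 mouse promoters. The letters and the culture 2 pattern did not always go together. Irf9 and Tapbp, both highest in culture 2, lacked the letters, while Igtp and B2m, both even over the cultures, held them. The NF-kB letters, found in Cxcl1 by construction, were also in the promoter of Cxcl2 and in none of the other 5 measured chemokine and cytokine genes with a promoter sequence. They were in 0.0852% of all promoters. A gene counted if any of its promoters held the letters, whereas both shares are over single promoters, so the 2 measures differ. A match is a description of the letters and not of binding.

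Ifit3, an antiviral protein gene induced by interferon, had 6.85, 11.09, 6.75 and 7.20, so culture 2 was 14.8-fold above the next culture. A second probe of Ifit3 gave the same pattern (10.97 in culture 2, at most 7.24 elsewhere) and the remaining probe was dim, at 5.06 to 6.18. Oas1a, which makes the activator of RNase L, had 6.30, 9.48, 5.29 and 6.74, but its second probe was undetected in all cultures. Oas1g was detected in culture 2 only, at 8.75, with a second probe alike (8.27) and the remaining one undetected. The regulator Irf9 (7.49, 9.64, 8.68 and 7.76) was also highest in culture 2. The list was not uniform: Irf1 was lowest there (12.45, 10.08, 11.05 and 11.81), as was Mx2 (8.06, 7.42, 8.12 and 8.29), and the GTPase Igtp was even at 9.16 ± 0.16. Ifitm1 and Ifitm2, membrane proteins that block virus entry, were bright in all cultures at 13.82 ± 0.59 and 12.65 ± 0.68. Among MHC genes, H2-T22 had 5.68, 8.94, 6.27 and 6.17 and the loading factor tapasin (Tapbp) 6.73, 9.41, 6.36 and 6.38. The second H2-T22 probe was undetected in all cultures. The light chain B2m differed by 0.29 over the cultures. The complement proteases C1ra (7.23, 10.93, 5.92 and 7.35) and C1s1 (7.04, 10.88, 6.87 and 6.52) stood apart in culture 2 in the same way, while other probes of both were undetected.

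Cholesterol synthesis genes had a mean deviation of 0.73 in culture 2, and 2 of 12 measured genes were at least 2-fold above each other culture there, against 4.95% of all measured genes. Insig1, the sterol sensor that holds back this pathway, had 5.89, 9.71, 6.09 and 6.01, with a second probe alike and the remaining one undetected. The demethylase gene Cyp51 had 9.93, 11.52, 10.86 and 9.86, with a second probe alike.

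The chemokine Cxcl1 and several immediate early genes were low in culture 2. Cxcl1, a neutrophil chemokine, had 14.49, 9.25, 13.33 and 14.45, so culture 2 was 16.9-fold below the next culture. Cxcl2 was detected in cultures 1 and 4 only, at 7.75 and 7.70. Ccl2, the monocyte chemokine, was highest in culture 3 (9.86, 8.78, 11.96 and 9.45), and Cxcl14 was undetected there (8.98, 9.59, 5.00 and 9.58). Among immediate early genes, which cells switch on within minutes of a stimulus, 3 of 8 measured were at least 2-fold below in culture 2, against 5.98% of all measured genes. Junb had 12.31, 9.99, 12.15 and 12.15, Klf6 13.55, 12.08, 13.41 and 13.62, and Egr2 8.67, 5.65, 8.92 and 8.79. Klf2 was low in cultures 2 and 3 (11.07, 8.96, 8.35 and 11.70).

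Culture 3 was the lowest for most of the single genes with the largest spread. Of the 30 measured genes with the largest SD (2.08 to 3.96), 22 were lowest in culture 3, as were 28.4% of all measured genes, and 7 in culture 2, and 11 were detected on all arrays. For some of the 22 the spread came from another culture that was high. Culture 4 was the high one for Rgs1 (7.63, 4.90, 4.77 and 10.65) and culture 2 for Ifit3 (6.85, 11.09, 6.75 and 7.20). Rps12, a protein of the small ribosomal subunit, had 12.73, 12.27, 4.62 and 12.60 in cultures 1 to 4. NOD cultures lay at 12.51 to 13.18. Its probe was thus at background in culture 3 alone among the 8 arrays. Kng1, the gene of the liver-made kinin precursor kininogen, had 13.55, 13.01, 5.83 and 13.18, and Srpx2, a secreted protein, 12.44, 13.06, 6.47 and 12.27. Emb (embigin, a partner of lactate transporters) had 12.15, 10.89, 5.32 and 11.43. Hspb1, the small heat shock protein, had 12.81, 13.23, 7.36 and 11.99, and Mgmt, a DNA repair enzyme, 11.56, 11.65, 7.65 and 11.45. Clec11a, an osteogenic growth factor of marrow stroma, had 11.13, 11.01, 6.74 and 10.52.

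Some genes undetected in culture 3 were also undetected in NOD cultures. In all, 33 genes were detected in BALB/c cultures 1, 2 and 4, undetected in culture 3 and at least 4-fold below each of the other BALB/c cultures. Of these, 14 were detected on no NOD array and 15 on all of them. Of the 3845 genes detected in BALB/c cultures 1, 2 and 4, 2.60% were detected on no NOD array. The 14 include Rasgrp3, a Ras activator (9.98, 10.66, 4.94 and 10.29), Hacd4, a fatty acid elongation enzyme (10.64, 10.80, 5.38 and 9.95), the prolactin receptor Prlr (9.04, 9.76, 5.01 and 8.47) and Sorl1, a sorting receptor (9.46, 8.12, 4.97 and 9.75). Parm1, a mucin-like membrane protein, was at 11.55, 11.74, 6.86 and 11.94 in the BALB/c cultures and undetected in NOD. In the same count for culture 2, none of 19 genes was undetected on all NOD arrays and 18 were detected on all of them. Of the 3878 genes detected in BALB/c cultures 1, 3 and 4, 1.70% were detected on no NOD array, so none of 19 is near that share. The 3 marker genes of the BALB/c cultures did not share this pattern, as given above.

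Other genes were found in culture 3 alone among the BALB/c cultures. Of the 136 genes detected there only, 13 were at least 4-fold above each other culture. The same count was 0 for culture 1, 4 for culture 2 and 9 for culture 4. B3gat1, an enzyme that makes the HNK-1 carbohydrate, had 5.05, 5.13, 9.78 and 4.91 and was undetected in NOD, and its second probe was undetected. Mest, an imprinted gene of mesoderm, had 5.43, 5.08, 8.97 and 5.14 in the BALB/c cultures, with NOD cultures at 9.81 to 10.69. The vesicle release gene Rims2 (4.98, 5.04, 9.56 and 5.75) was highest in culture 3 as well.

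**Figure D5:**
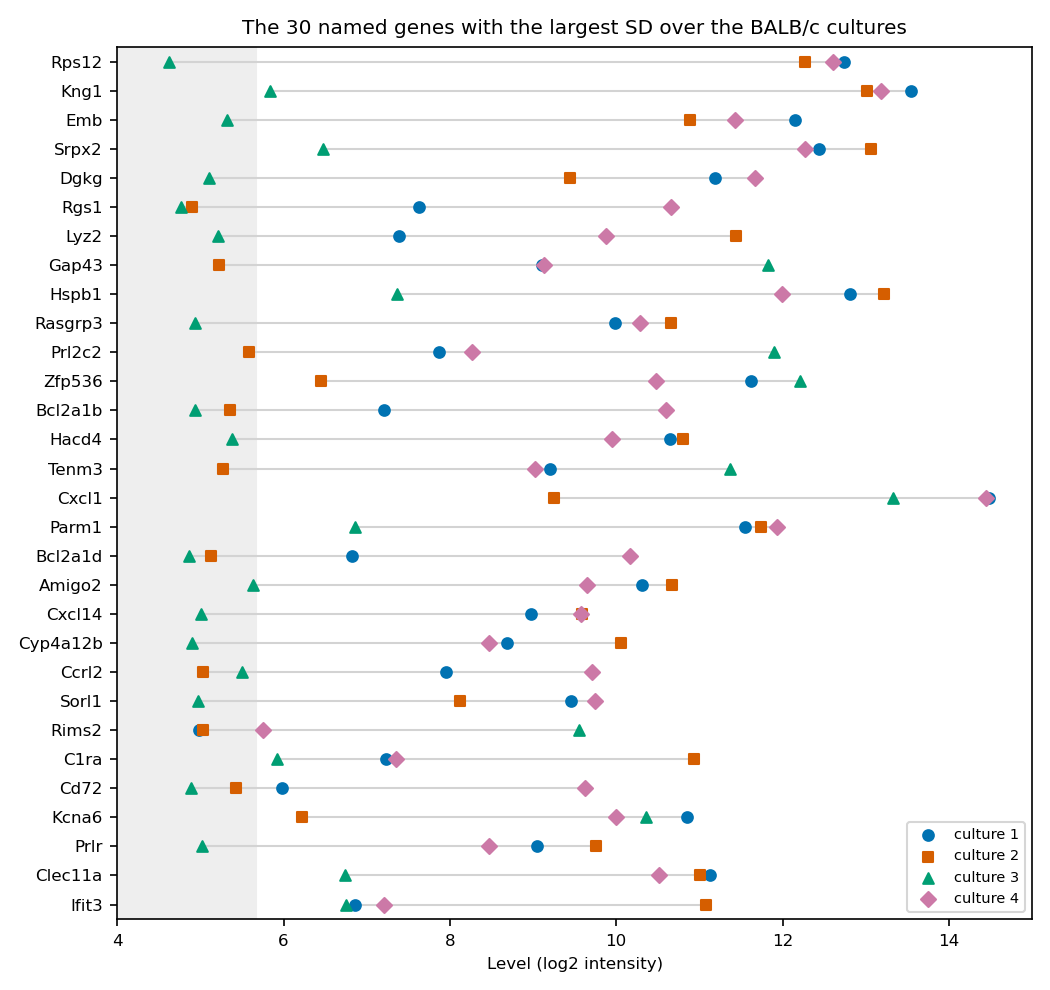
Level (log2 intensity) in BALB/c cultures 1 to 4 of the 30 named genes with the largest SD, ordered by SD from top to bottom, 1 symbol per culture; grey lines join the lowest and highest culture and the grey band ends at the highest detection limit. Culture 3 is lowest for 22 of the 30 genes, and the first of them, Rps12, lies at 4.62 there against 12.27 to 12.73 in the others.

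Some genes low in culture 2 are known from neural crest derivatives and nerve cells. Gap43, a growth cone protein, had 9.11, 5.22, 11.83 and 9.13 in cultures 1 to 4, and Tenm3, an adhesion protein of neurons, had 9.20, 5.27, 11.37 and 9.03, with a second probe alike. Nestin (Nes), an intermediate filament of progenitors, had 10.57, 7.02, 11.55 and 10.21, but its dim second probe ran the other way, at 5.95 in culture 2 and 5.10 to 5.25 in the others. Tfap2a, a transcription factor of the neural crest, had 8.46, 5.33, 10.25 and 8.75. The GDNF receptor Gfra1 had 8.27, 5.52, 9.23 and 8.13, and desert hedgehog (Dhh), which Schwann cells secrete, had 7.93, 5.32, 9.10 and 7.52. Zfp536, a zinc finger gene of the nervous system, had 11.62, 6.45, 12.20 and 10.48, and the adhesion gene Nrcam had 8.96, 5.72, 9.84 and 9.90. Nes, Zfp536 and Nrcam were still detected in culture 2, and all 8 genes were detected on all 4 NOD arrays. The 8 were put together after their values had been seen, as genes low in culture 2, so neither the grouping nor its direction is a result.

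Cultures 4 and 1, the pair closest to each other, differed at least 4-fold in 18 measured genes, 17 of them higher in culture 4. The count of 16 given above is over genes detected in both of these cultures. Of the 17, Lyz2 and C1qb are on the myeloid list and Cd53 is on the pan-leukocyte list, and some others, picked out after their values were seen, are known from leukocytes. They did not all follow the myeloid list across cultures, since Lyz2 was highest in culture 2 and Cd53 was high in culture 3. Rgs1, a regulator of chemokine receptor signals, had 10.65 in culture 4 and 7.63 in culture 1, and was undetected in cultures 2 and 3. Bcl2a1b, a survival gene of leukocytes, had 10.60 in culture 4 and 7.20 in culture 1. Cd72 had 9.63 and 5.98, and the inhibitory Fc receptor gene Fcgr2b 9.15 and 5.58, in cultures 4 and 1. Others of the 17 are Igfbp5, the proteoglycan gene Vcan and the osteocalcin copies Bglap2 and Bglap3, which are on other lists, and the mitochondrial ND5. The only gene higher in culture 1 was Col27a1. The mean level of the 13 myeloid genes was 6.44 in culture 4 and 5.47 in culture 1, and its part in these differences was not tested. Outside these 18, 9 genes were detected in culture 4 only of the BALB/c cultures and were at least 4-fold above each other one. They were C1qa of the myeloid list, Lilrb4a, Lilr4b, Bcl2a1a, Clec4d, Pik3cg, Plek and Tlr13, also known from leukocytes, and Psmc1. Lilrb4a, for example, had 8.85 in culture 4 and 5.30 in culture 1. The proteasome subunit gene Psmc1 was at 9.50 in culture 4 against 4.95 to 5.21, and was detected in all NOD cultures at 9.35 to 10.70.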

How the data were processed

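RNA of 8 MSC cultures (4 BALB/c, 4 NOD) was labelled and hybridised to Illumina mouse bead arrays. The deposited table holds, per the file headers, 1 average signal intensity per probe and array, not yet normalized, and a detection p-value beside it, which sets the probe against the array's negative controls. A second deposited table holds intensities normalized by the authors on a linear scale, by a method not given in the sources used here, and it served only as an alternative. Intensities were background-corrected with limma's normexp method (R 4.3.3, limma 3.58.1), with negative controls inferred from the detection p-values and an offset of 16, quantile-normalized over all 8 arrays and taken to log2. Summaries used Python 3.11.15 and pandas 2.3.3. Probe identifiers were read as Entrez gene IDs against a RefSeq table of GRCm38.p6. This named 9806 of 46628 probes and 8107 genes, and the brightest probe stands for a gene. Other probes are given for some genes only. Probes without a name are not described, and a few results are not reported here.

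Groups were taken from the labels. No comparison between strains was tested, and counts are set beside the same count over all measured genes, or over all named genes for detection. The number of arrays, 4, limits the precision. The scripts were tested on simulated data. The genes named are the 30 brightest, the 30 most variable, the 5 brightest and 3 most variable of each list, members whose detection a list's count turns on, and others chosen with their values known. The members and lists were chosen with earlier results of these data known. Alternatives changed the background correction, offset, normalization, detection threshold, probe rule and arrays kept.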

Additional observations from a re-analysis of the deposited data

Results flagged for a closer look

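For 40 of the genes named above, 1 of the 4 BALB/c cultures lay far from the other 3, with a gap to the nearest culture that exceeded, as a share of the gene's whole range, Dixon's 95% critical value for 4 samples. By chance about 1 group in 20 passes this. Over all 4361 measured genes 349 (8.00%) passed, with culture 2 apart for 175, culture 3 for 153, culture 1 for 11 and culture 4 for 10. Many genes were named because they vary, so their number is not set against that share. The value in brackets is the gap as a share of the range.

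Culture 3 was the low one for collagen and matrix genes, namely Col1a2 (0.919), Serpinh1 (0.844), Pcolce (0.834), P4ha3 (0.928), Itga11 (0.852) and Serpinf1 (0.918). It was also low for the soluble factors Cxcl14 (0.866), Cx3cl1 (0.874), Clec11a (0.861), Tgfb3 (0.874), Kng1 (0.931) and Srpx2 (0.879). The enzymes Ptges (0.926), Gstm2 (0.850), Mgmt (0.95) and Hacd4 (0.844) were low there, as were Rps12 (0.942), Parm1 (0.924) and Rasgrp3 (0.882). The second Gstm2 probe was lowest in culture 3 too, at 6.27, but was also high in culture 2, at 11.65 against 8.90 and 9.02 in cultures 1 and 4. Culture 3 was the high one for Thbs2 (0.895), Eng (0.917), Eif2s3y (0.958), B3gat1 (0.956), Mest (0.910), Rims2 (0.831) and Mcm7 (0.846). The mean deviation of the collagen processing list passed as well, at 0.870, with culture 3 low.

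Culture 2 was the high one for the interferon, antigen loading, complement and sterol genes Ifit3 (0.896), Oas1g (0.955), Tapbp (0.877), C1s1 (0.881) and Insig1 (0.947). It was the low one for the transcription factor genes Cebpb (0.918), Egr2 (0.921), Junb (0.934) and Klf6 (0.861). Culture 4 was the high one for the macrophage genes C1qa (0.854), Csf1r (0.978), Fcgr3 (0.890) and Fcgr2b (0.870), and for Psmc1 (0.943).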

How the results depend on the processing

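Of 1966 gene levels recomputed under the alternatives, 59 moved by more than the spread between cultures, as did 65 of 448 list spreads and none of 1600 list deviations. The count of genes with a 4-fold range, 627 as reported, was 267 with the detection p-values used as deposited in the background fit and 384 with no background correction. Leaving out 1 culture gave 302 to 558, and leaving out cultures 2 and 3 together, an alternative chosen after seeing the data, gave 16. The median SD of 0.44 became 0.26 with the p-values as deposited and 0.15 without cultures 2 and 3. The lowest correlation between cultures, 0.88, was 0.83 at a detection p-value under 0.01 and 0.98 without cultures 2 and 3. The number of lists that deviated by 0.5 or more in a culture, 12 as reported, was 6 to 9 with 1 culture left out and 0 without cultures 2 and 3. The cause of these shifts was not tested, apart from the fewer cultures. No called value changed sign. No paired analysis was possible because the results describe 1 strain and come from no test. Signal over background limits the dim genes, for which undetected is not absent.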
